A study of Sus scrofa with 2 samples.

Results

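The miR-148 and miR-152 family was followed in small RNA of whole pig testis, at 180 days of age, when boars are sexually mature, and at 30 days, before maturity. The boars were of Junmu-1, a white Chinese breed. Its members were all sequence tags that the authors' lists name miR-148, miR-148a, miR-148b or miR-152 from any species, whichever arm of the precursor they come from. They numbered 1251 of the 93229 distinct tags in the 2 lists, under 7 of 1386 names and arms. The 180-day list held 3970 family reads in 250 tags and the 30-day list 61074 in 1195 tags, and 194 tags were in both. Each age is represented by 1 library from the pooled RNA of 3 boars. There is thus no replicate spread, and every interval is an exact 95% interval that covers counting error only.

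A miRNA guides Argonaute proteins to messenger RNAs, mostly through its seed, bases 2 to 8 from the 5′ end. Members of this family carry the same seed and so can bind many of the same targets. In human and mouse cells they are known for repressing DNMT1, the enzyme that maintains DNA methylation when cells divide, and miR-148a is also known from liver, pancreas and milk. Messenger RNAs were not measured in these libraries.

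The leading sequences of the family's main arm, the 3′ arm of the precursor, are given with the seed in capitals and T for U, as deposited. They show how little separates the members.
miR-148a: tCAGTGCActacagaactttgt
miR-148b-3p: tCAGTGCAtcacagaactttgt
miR-152: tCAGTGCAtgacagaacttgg
miR-148: tCAGTGCAttacagaactttgt
Counted from the 5′ end, the changes that turn miR-148a into miR-148b-3p are C9T and T10C. Those that turn miR-148a into miR-152 are C9T, T10G and T20G. The entry called miR-148 comes from zebrafish. It is a single change, C9T, from miR-148a and a single change, C10T, from miR-148b-3p. No other name in either list had the seed CAGTGCA in its leading tag, and reads with it under other names numbered 4 at 180 days and 29 at 30 days.

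The genes lie in related surroundings. In the RefSeq annotation of the pig assembly Sscrofa11.1, MIR148B lies within COPZ1 and MIR152 within COPZ2, which encode zeta subunits of the COPI vesicle coat, while MIR148A lies within no protein-coding gene. Next to MIR148A are CBX3, HNRNPA2B1 and NFE2L3. Next to MIR148B are their relatives CBX5, HNRNPA1 and NFE2, and next to MIR152 are NFE2L1 and CBX1. CBX genes encode heterochromatin proteins, and NFE2 and its relatives encode transcription factors.

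Abundance is given as RPM, the reads of a name scaled to a common total of miRNA-matched reads. The 180-day list held 852209 such reads and the 30-day list 7525725, so 3 reads stand for 3.52 RPM at 180 days, against 0.399 RPM at 30 days. Read as ranks by count, the tag numbers put miRNA matches at or below 7.08% of all reads at 180 days and at or below 59.2% at 30 days, so RPM describes the makeup of the miRNA pool and not the amount per cell. Of the testis list, the name miR-202, of a gonadal miRNA, had 4012 RPM at 180 days and 6014 RPM at 30 days. Its more read name miR-202-5p, outside the list, had 90885 RPM at 180 days and 53505 RPM at 30 days. The other 3 members, miR-449a, miR-509-5p and miR-34c, were each more than 2-fold higher in RPM at 180 days. miR-34c, known from meiotic and later germ cells, had 22616 RPM at 180 days and 5.98 RPM at 30 days. Lists of miRNAs known from other organs and cell types also had reads. The 4 measured members of the digestive organ list, where miR-148a is known to be high, summed to 1395 RPM at 180 days, against 215 RPM at 30 days. Of these sums miR-192 made up 995 and 107 RPM. The ratios of miR-122 and miR-375 were 10.2 and 60.8, while miR-217 of pancreas had one of 1.29 (1.03 to 1.60). The list's 2 rarer miRNAs had few reads, with 0 at 180 days and 15 at 30 days for miR-216a of pancreas, and 9 and 10 for miR-194. The 6 blood members summed to 3960 and 1705 RPM, of which miR-451 of red cells made up 3774 and 1535 RPM, while 3 of the other 5 had ratios below 1. The 3 striated muscle members summed to 6527 and 1428 RPM at 180 and 30 days, of which miR-1 made up 6399 and 1305 RPM. By contrast miR-206 had a ratio of 1.02 (0.827 to 1.25), and miR-133a had only 4 and 21 reads. Endothelial miR-126 had 177 and 116 RPM at 180 and 30 days. Outside the list, miR-126-3p had 29.3 and 43.1 RPM and miR-126-5p 422 and 223 RPM at these ages. In RPM the sums of these lists were higher at 180 days and the family lower, and their part in its values was not tested. In whole tissue, fewer cells of a type and less miRNA per cell cannot be told apart.

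Whether the family's place in the miRNA pool differed between mature and immature testis was asked first. The family took 0.466% of miRNA reads at 180 days (0.452 to 0.481%), against 0.812% at 30 days (0.805 to 0.818%), a share 1.74-fold lower at 180 days (1.69 to 1.80). The ratio of the shares, 0.574, became 0.523 (0.506 to 0.541) without a single tag matched across a gap, described below under miR-152. The 2-fold rule called a name higher at a ratio of 180-day to 30-day RPM of 2 or more and lower at 0.5 or less, if the interval excluded 1. Among 469 names and arms with a sum of at least 20 reads, 12.2% were called lower and 29.4% higher. Of the family's 6 such names, 2 were called lower, miR-148a and the scarce miR-148, and 0 higher. Ratios lay below 1 for 5 of these 6 names and for 41.6% of all 469, and the median log2 ratio was -0.62 over the 6 and 0.23 over all names with reads in both libraries. The 6 names are not independent, since they share precursors and can exchange reads.

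miR-148a had 1646 reads, or 1931 RPM, at 180 days, against 29152 reads, or 3874 RPM, at 30 days. It ranked 58th of all names at 180 days and 35th at 30 days. Its ratio was 0.499 (0.474 to 0.524), which meets the 2-fold rule by the smallest margin of the names called lower with reads in both libraries. The value crossed to 0.5003 without tags matched across a gap, so the size, close to 2-fold, is better described than the call.

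miR-152 had 1678 reads, or 1969 RPM, at 180 days and 25455 reads, or 3382 RPM, at 30 days. Its ratio was 0.582 (0.554 to 0.612), short of the 2-fold rule. A single tag weighs on this value. The second most read tag named miR-152 in the 180-day list was a sequence of 19 bases that the list matches to miR-152 with 18 matching and 4 unmatched bases, across gaps. It is shown with its bases 2 to 8 in capitals, which are not the family's seed.
gapped tag: tCATGTGAcagaagcttgg
This tag had 353 reads at 180 days and 2 reads at 30 days. It made up 21.0% of the reads named miR-152 at 180 days (19.1 to 23.1%) and 0.00786% at 30 days (0.000952 to 0.0284%). Placed on miR-152 without a gap, it matched at only 10 bases. Its own ratio was 1559 (428 to 12920), while the 6 tags of miR-152 with most reads over both libraries had ratios between 0.391 and 0.572. Without it miR-152 had a ratio of 0.460 (0.435 to 0.486), and without all gapped tags one of 0.457 (0.432 to 0.483), both past the 2-fold rule. The 2 main arms with the most reads, miR-148a and miR-152, were thus about 2-fold lower in the 180-day pool once gapped tags were set aside.

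miR-148b-3p had 580 reads, or 681 RPM, at 180 days and 5945 reads, or 790.0 RPM, at 30 days. Its ratio was 0.862 (0.790 to 0.938), the nearest to 1 of the main arms. Its interval does not overlap those of miR-148a and miR-152, with or without gapped tags.

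With all tags counted, the order of the 3 main arms by level was less clear at 180 days than at 30 days. At 30 days miR-148a lay above miR-152, with intervals that did not overlap. At 180 days miR-152 and miR-148a had overlapping intervals, 1876 to 2065 RPM and 1839 to 2027 RPM, and could not be ordered. Without gapped tags miR-148a held 1634 reads and miR-152 1306 at 180 days. These were 46.5% (44.8 to 48.1%) and 37.1% (35.5 to 38.8%) of main-arm reads, the same order as at 30 days. miR-148b-3p was lowest of the 3 at both ages.

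**Figure D1:**
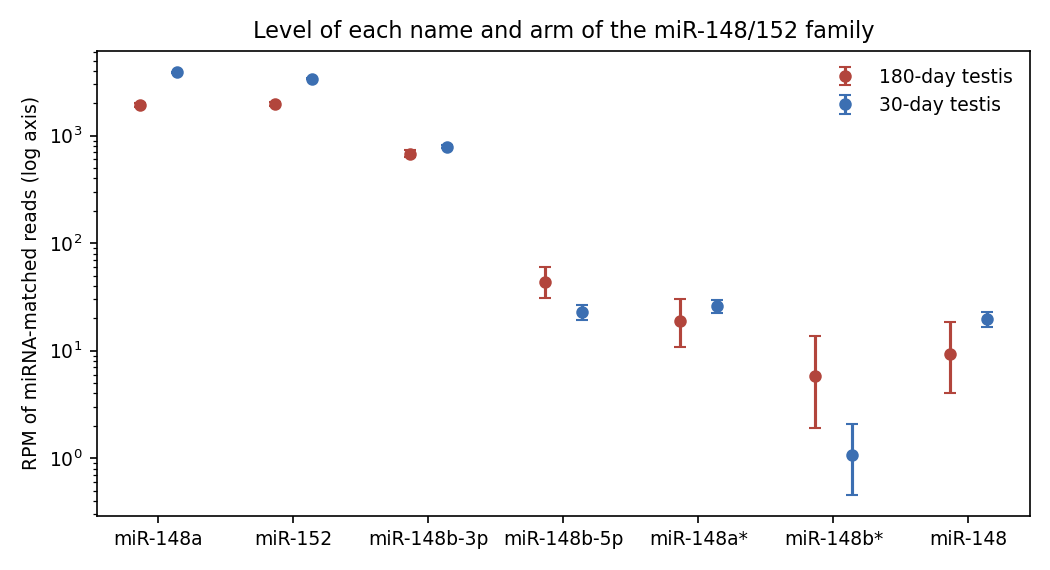
RPM (log axis) of each name and arm of the family in the 180-day library (red) and the 30-day library (blue), with exact 95% counting intervals. The main arms miR-148a and miR-152 lie lower at 180 days, at 1931 and 1969 RPM, than at 30 days, at 3874 and 3382 RPM, and the intervals of the scarce 5′ arms are wide.

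The makeup of the family does not depend on how the libraries are scaled. Among reads of the main arms, miR-148b-3p took 14.9% at 180 days (13.8 to 16.0%), against 9.82% at 30 days (9.58 to 10.1%). There were 0.352 reads of miR-148b-3p for each read of miR-148a at 180 days and 0.204 at 30 days. The odds ratio was 1.73 (1.56 to 1.91), and 1.75 (1.58 to 1.94) without gapped tags. miR-148a took 42.2% at 180 days (40.6 to 43.7%), against 48.1% at 30 days (47.7 to 48.5%). Without gapped tags its shares were 46.5% at 180 days (44.8 to 48.1%) and 48.1% at 30 days, with intervals that overlapped. For miR-152 the direction turned on the gapped tags. Its odds over miR-148a were 1.17-fold higher at 180 days with them (1.09 to 1.25) and had an odds ratio of 0.913 without them (0.846 to 0.984).

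**Figure D2:**
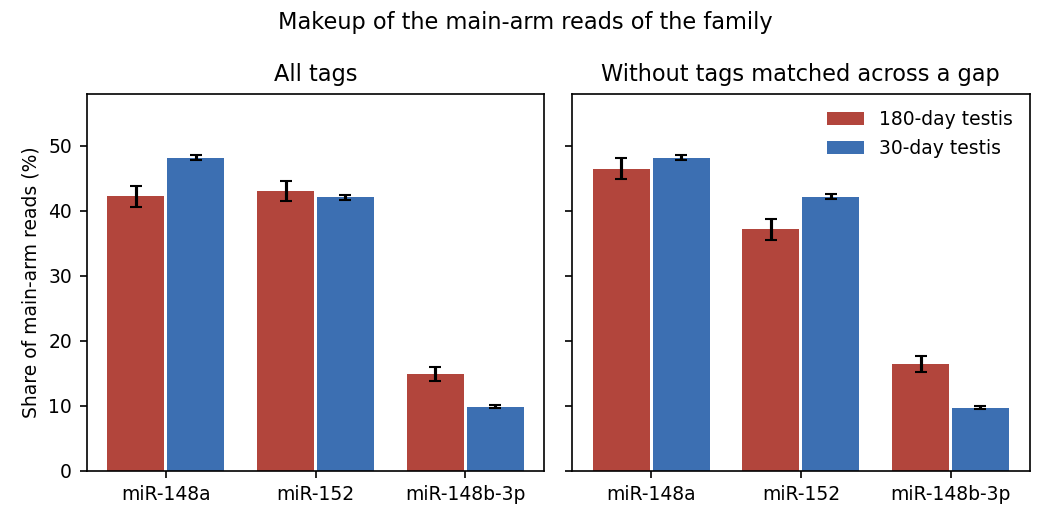
Share (%) of main-arm reads taken by each member in the 180-day library (red) and the 30-day library (blue), with exact 95% counting intervals, over all tags (left) and without tags matched across a gap (right). miR-148b-3p took the larger share at 180 days in both panels, and miR-152 took the smaller share at 180 days only in the right panel.

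The opposite strand of each precursor, the 5′ arm, was scarce. It is usually degraded after the main arm has been loaded into Argonaute. The most read tags of these arms are shown with bases 2 to 8 in capitals, which are the same in miR-148a* and miR-148b-5p and are shifted by a base in miR-148b*.
miR-148a*: aAAGTTCTgagacactccga
miR-148b-5p: gAAGTTCTgttatacactcaggct
miR-148b*: aAGTTCTGttatacactcaggct
The names miR-148b-5p and miR-148b* stand for the same arm with starts that differ by a base. miR-148b-5p had 37 reads (43.4 RPM) at 180 days, against 171 reads (22.7 RPM) at 30 days, with a ratio of 1.91 (1.30 to 2.74) that turned to 0.229 when the whole library was the base. Under the TMM and median-of-ratios scalings given below, its ratio was 1.02 (0.692 to 1.46) and 1.03 (0.700 to 1.47). miR-148b* had 5 and 8 reads at 180 and 30 days, too few for the comparison. miR-148a* had 16 reads (18.8 RPM) at 180 days, against 195 reads (25.9 RPM) at 30 days, with a ratio of 0.725 (0.406 to 1.21). No name in the lists stood for the 5′ arm of miR-152.

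The 5′ arm made up 6.75% of the reads of the miR-148b precursor at 180 days (4.91 to 9.02%), against 2.92% at 30 days (2.52 to 3.38%). For the miR-148a precursor these shares were 0.963% at 180 days (0.551 to 1.56%), against 0.664% at 30 days (0.575 to 0.764%). The intervals of the ages were apart for miR-148b and overlapped for miR-148a. The 180-day value for miR-148b rests on 42 reads.

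The zebrafish name miR-148 had 8 reads at 180 days, against 148 at 30 days. Its ratio was 0.477 (0.202 to 0.965). Its tag C9T held 4 and 87 of these reads, beside 1119 and 20986 reads of the exact miR-148a sequence at 180 and 30 days. At 30 days it was the second most read of the 62 miR-148a tags with 1 substitution before the last base, after A15C with 106 reads and ahead of T5G with 68. Its level per exact miR-148a read was 0.357% at 180 days and 0.415% at 30 days. Counted against miR-148b-3p, as C10T, the same tag was the most read single change before the last base at both ages. It made up 1.22% of exact miR-148b-3p reads at 180 days, from 4 reads, and 2.61% at 30 days, where the next change, C17T, made up 1.23%. The call of the name miR-148 was lost at a ratio of 0.509 (0.200 to 1.08) without tags of under 3 reads, at 0.561 (0.237 to 1.14) with 0 mismatches, and at 0.499 (0.211 to 1.01) without gapped tags.

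Which ends the members have was asked next, within each library and over tags placed without a gap. The reference form of miR-148a, the sequence shown above, held 68.5% of its reads at 180 days (66.2 to 70.7%), against 72.6% at 30 days (72.1 to 73.1%). For miR-148b-3p it held 56.7% at 180 days (52.5 to 60.8%) and 57.1% at 30 days (55.9 to 58.4%). For miR-152 it held 45.3% at 180 days (42.5 to 48.0%), against 42.6% at 30 days (42.0 to 43.2%). The reference form thus held the smallest share in miR-152, at both ages. This order turned when tags with a mismatch were left out, as an added T or A on miR-152 is listed as one: the share was then 92.2% at 180 days and 90.5% at 30 days, the highest of the 3 members.

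The other ends of miR-152 were mostly extra bases at the 3′ end. Its most read extended tags are shown with the seed in capitals.
miR-152 with T: tCAGTGCAtgacagaacttggt
miR-152 with A: tCAGTGCAtgacagaacttgga
miR-152 with TA: tCAGTGCAtgacagaacttggta
miR-152 with TT: tCAGTGCAtgacagaacttggtt
The reference form of miR-152 followed by 1 to 3 bases held 44.7% of its reads at 180 days (42.0 to 47.5%), against 47.3% at 30 days (46.7 to 47.9%). For miR-148b-3p this was 10.4% at 180 days (8.03 to 13.2%) and 13.4% at 30 days (12.6 to 14.3%), and for miR-148a 0.490% (0.212 to 0.962%) and 0.789% (0.690 to 0.898%). The reference of miR-152 is a base shorter than the others. An added T alone held 25.4% of miR-152 reads at 180 days (23.1 to 27.9%), against 29.7% at 30 days (29.1 to 30.2%), and an added A 13.8% (11.96 to 15.8%) and 12.7% (12.3 to 13.2%).

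Of the miR-152 reads with a single added base, T ended 64.1% at 180 days and 69.4% at 30 days, A 34.7% and 29.8%, and G 0.386% and 0.434%. The opossum entry of miR-152 ends in G at this base, so the added bases were not the one that entry carries. No pig precursor sequence was used here, so whether T or A is encoded next to miR-152 was not tested. Over the reads of all names outside the family, the entry with an added T held 4.10% at 180 days and 3.84% at 30 days, and with an added A 5.27% and 5.39%. Those shares count from each tag's own listed entry, while the miR-152 shares count from its 21-base mouse entry. Reads named miR-152 were also listed under the 22-base opossum entry, with 644 at 180 days and 12907 at 30 days. The measures are thus unlike.

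In miR-148a and miR-148b-3p the last base was often missing or replaced. miR-148a ended 1 base early in 13.6% of its reads at 180 days (11.96 to 15.3%), against 13.0% at 30 days (12.6 to 13.4%), and miR-148b-3p in 9.53% (7.26 to 12.2%) and 9.94% (9.18 to 10.7%). These shares overlapped between the ages. With the last base replaced by A, the share was higher at 180 days in both members.
miR-148a with last base A: tCAGTGCActacagaactttga
miR-148b-3p with last base A: tCAGTGCAtcacagaactttga
This form held 5.45% of miR-148a reads at 180 days (4.40 to 6.66%), against 3.59% at 30 days (3.38 to 3.81%). It held 4.33% of miR-148b-3p reads at 180 days (2.82 to 6.33%), against 2.04% at 30 days (1.70 to 2.44%). Over names outside the family it held 2.08% at 180 days and 1.80% at 30 days. An added T went the other way in miR-148b-3p, with 7.97% at 180 days (5.90 to 10.5%) and 11.6% at 30 days (10.8 to 12.5%), as in miR-152. A mismatch at the last base and a sequencing error there cannot be told apart in a single tag. Replacement of the last base of miR-148a by C or G, rather than A, held 0.184% and 0.0612% at 180 days and 0.259% and 0.0830% at 30 days.

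**Figure D3:**
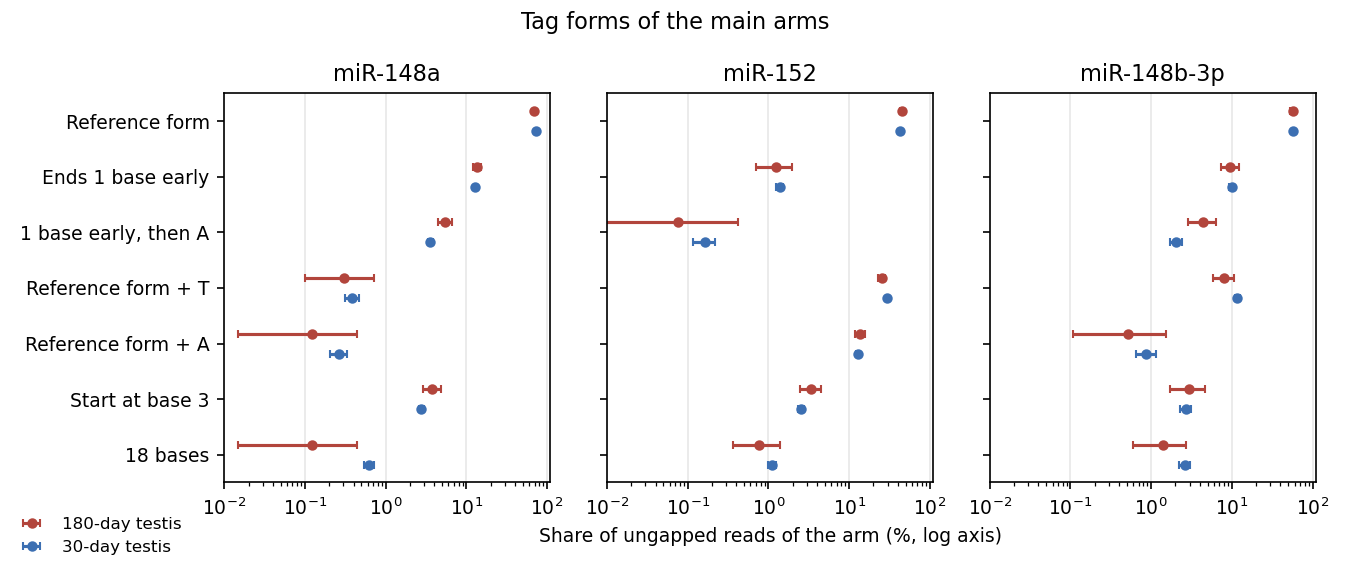
Share (%, log axis) of the ungapped reads of miR-148a, miR-152 and miR-148b-3p in 7 tag forms, in the 180-day library (red) and the 30-day library (blue), with exact 95% counting intervals. Added T and A are frequent in miR-152, at 25.4% and 13.8% at 180 days, and the form with A in place of the last base is more frequent at 180 days in miR-148a and miR-148b-3p.

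The main arms also shared a second 5′ end. A tag that begins at base 3 of the reference form lacks its first 2 bases, and its own bases 2 to 8, in capitals, are no longer the family's seed.
miR-148a from base 3: aGTGCACTacagaactttgt
miR-152 from base 3: aGTGCATGacagaacttgg
miR-148b-3p from base 3: aGTGCATCacagaactttgt
In this frame the capitals include the bases at which the members differ, so the shifted forms of the 3 members do not share bases 2 to 8 with each other. Starts at base 3 held 3.79% of miR-148a reads at 180 days (2.92 to 4.84%), against 2.76% at 30 days (2.57 to 2.95%). They held 3.37% of miR-152 reads at 180 days (2.46 to 4.50%), against 2.55% at 30 days (2.36 to 2.75%), and 2.95% of miR-148b-3p reads (1.73 to 4.68%) and 2.70% (2.30 to 3.14%). The intervals of the ages overlapped in each member. Over the reads of names outside the family, starts at base 3 of the named entry held 0.186% at 180 days (0.177 to 0.196%) and 0.173% at 30 days (0.170 to 0.176%).

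Starts at base 2 were the more common shift outside the family, at 3.42% of reads at 180 days and 3.44% at 30 days. In the family they were scarce, at 0.734% of miR-148a reads at 180 days and 0.266% at 30 days, at 0 of 1306 miR-152 reads at 180 days, which allows a share of up to 0.230% if 3 reads are taken as the floor and 0.282% by the exact interval, and at 0.0553% at 30 days. In miR-148b-3p they held 0.693% at 180 days and 0.275% at 30 days. Among names with 500 or more ungapped reads, 3 of 83 others had a larger share of starts at base 3 than each of the main arms at 180 days, and 9 of 166 at 30 days, and the median over those others was 0.0712% and 0.106%. The reads that kept the seed were 93.6% of ungapped main-arm reads at 180 days (92.7 to 94.4%), against 95.1% at 30 days (94.97 to 95.3%).

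**Figure D4:**
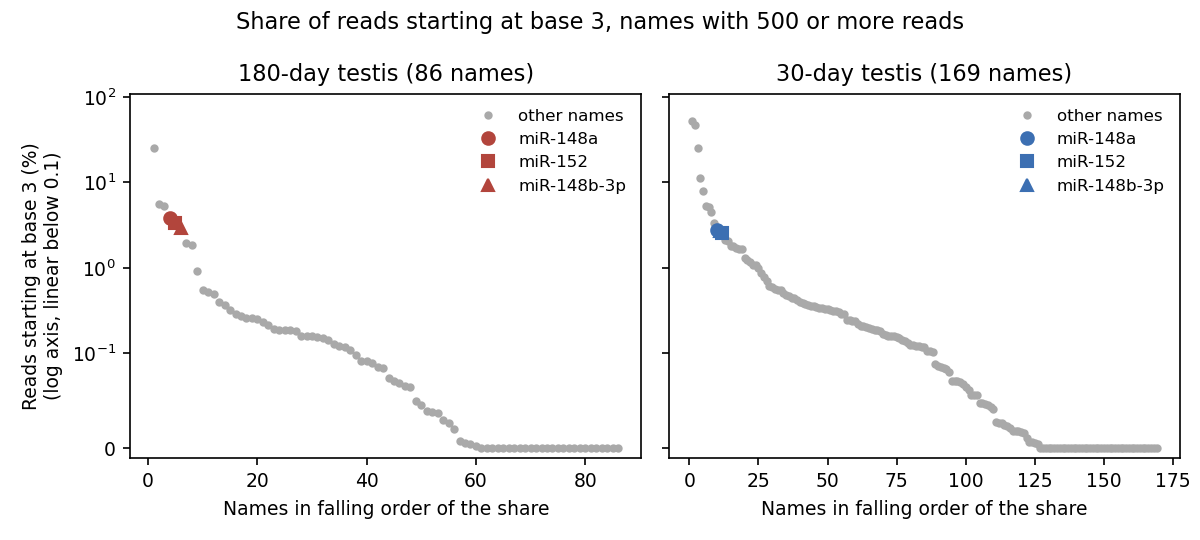
Share (%) of ungapped reads that start at base 3 of the named entry (log axis, linear below 0.1%), for each name with 500 or more reads in the 180-day library (left) and the 30-day library (right), in falling order, with other names in grey. The 3 main arms lie close together near the top, between 2.95 and 3.79% at 180 days and between 2.55 and 2.76% at 30 days.

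A form of 18 bases ending at base 18 was found in the 3 main arms as well. In miR-148a it held 2 reads at 180 days and 181 at 30 days, or 0.122% (0.0148 to 0.441%) and 0.626% (0.539 to 0.724%). In miR-148b-3p it held 1.39% at 180 days (0.600 to 2.71%) and 2.63% at 30 days (2.23 to 3.07%), and in miR-152 0.766% (0.368 to 1.40%) and 1.11% (0.985 to 1.25%). The intervals of the ages were apart in miR-148a only. Tags of 18 bases held 0.424% of reads outside the family at 180 days and 0.547% at 30 days, and 18 bases is also the lower limit of the lists.

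The ratio between the ages was not the same for each form. The reference tag of miR-148a had 1313 RPM at 180 days, against 2789 RPM at 30 days, with a ratio of 0.471 (0.443 to 0.5001). Its tag with last base A had 104 and 138 RPM, a ratio of 0.758 (0.603 to 0.942), and its start at base 3 59.8 and 83.0 RPM, a ratio of 0.721 (0.531 to 0.959). Among miR-152 tags, the reference form had a ratio of 0.484 (0.445 to 0.526), the form with T 0.391 (0.349 to 0.436) and the form with A 0.493 (0.422 to 0.573). In miR-148b-3p the reference tag had a ratio of 0.868 (0.772 to 0.972), the tag with an added T 0.600 (0.435 to 0.809) and the tag with last base A 1.86 (1.15 to 2.87).

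All of these ratios are relative to the miRNA pool, and other scalings shift every log2 ratio by the same amount. The shift was -0.33 when the 10 most read names were left out of the totals, -0.91 with edgeR's TMM, -0.89 with median-of-ratios factors and -3.06 per read of the whole library. All 4 shifts are downward, so a ratio below 1 stays below 1 by construction. The number of the family's 6 names called lower was 3, 5, 5 and 6 in the same order of scalings, and the percentage of all names called lower was 19.6, 34.3, 34.3 and 84.4%.

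**Figure D5:**
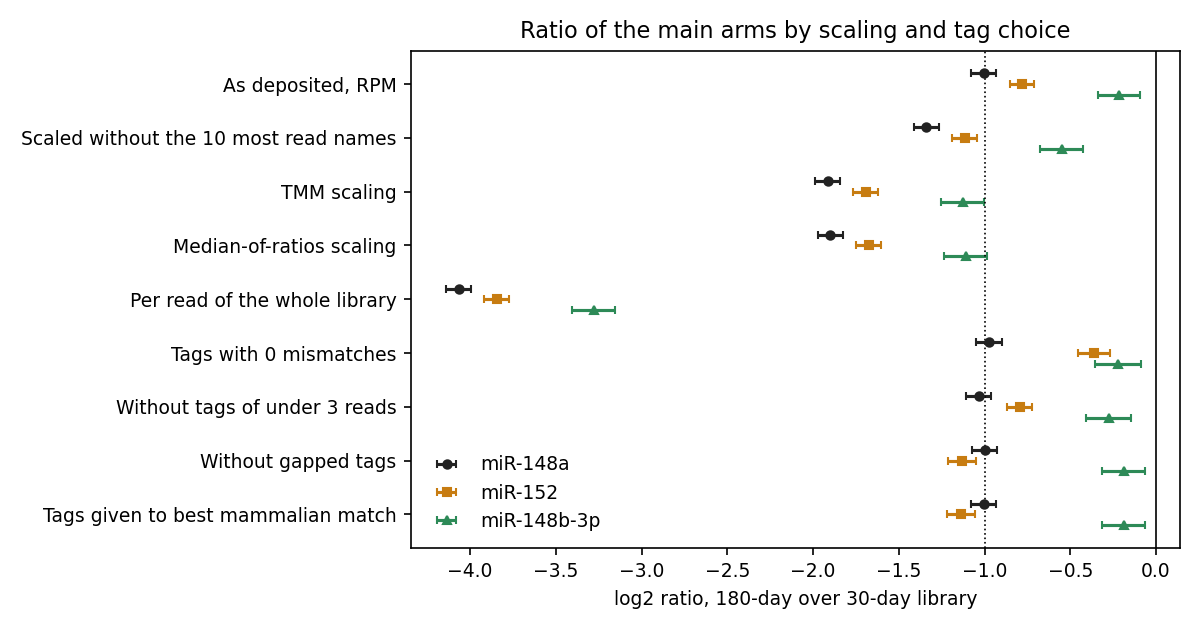
Log2 ratio of the 180-day to the 30-day library for the 3 main arms, under each scaling and choice of tags, with exact 95% counting intervals. The dotted line marks a 2-fold lower value, and all points lie below 0. miR-152 moves from -0.78 as deposited to -1.13 without gapped tags.

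The names with the nearest pattern were sought over the 2 libraries, by the difference in log2 ratio among names within 2-fold of the member's RPM at both ages. For miR-148a these were miR-181a, with a ratio of 0.5003 (0.469 to 0.534), miR-25 with 0.544 (0.519 to 0.570) and miR-221 with 0.438 (0.412 to 0.465), out of 12 names. For miR-152 they were miR-27b with 0.612 (0.572 to 0.654), miR-25 and miR-202-3p with 0.628 (0.597 to 0.660), out of 15. These rest on the ratio with the gapped tag, and at the 0.457 without gapped tags miR-221 and miR-181a lie nearer. For miR-148b-3p they were miR-744 with 0.820 (0.751 to 0.894), miR-423-5p with 0.783 (0.731 to 0.838) and miR-151-5p with 0.738 (0.678 to 0.802), out of 17. With 2 libraries, such likeness is a description only.

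Other miRNAs reported to repress DNA methyltransferase messages were compared as a fixed list. In RPM, of this list of 8, 4 were called higher at 180 days and 0 lower, beside 29.4% and 12.2% of all names. Those called higher were miR-143 and the relatives miR-29a, miR-29b and miR-29c, and relatives are not independent. miR-101, the most read of the 8 at 30 days, had a ratio below 1, of 0.822 (0.812 to 0.832). The list's median log2 ratio was 0.87, beside 0.23 over all names. miR-29b, which targets DNMT3A and DNMT3B in human cells, had 312 RPM at 180 days, against 57.5 RPM at 30 days, with a ratio of 5.42 (4.64 to 6.33). miR-29a had 37974 and 17353 RPM, a ratio of 2.19 (2.16 to 2.22). The count depended on the scaling: 1 of the 8 was higher and 1 lower with TMM, beside 15.4% and 34.3% of all names. With the whole library as the base, 7 were lower and 0 higher, beside 84.4% lower and 5.76% higher of all names.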

How the data were processed

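The deposited data are 1 table of miRNA-matched tags per library. Each row holds a tag's sequence and raw read count as the authors gave them, the name and sequence of the matched entry, and the matching, mismatched and unmatched bases. Deposited alignment scores were not used. Per the labels' protocols, small RNA of 18 to 30 nucleotides was ligated, amplified with 15 PCR cycles and sequenced on a Solexa instrument; the sources used here do not give the aligner, miRBase release or build. No molecular identifiers are named, so reads are not independent molecules.

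Names lost their species prefix and copy number, and counts were summed per name and arm. Ratios have exact conditional intervals, shares exact Clopper-Pearson intervals and odds ratios exact conditional intervals (scipy 1.17.1). With 1 library per age there are no p-values. A tag was called gapped when no ungapped placement reached its listed number of matching bases; removing these was chosen after seeing the data. Ties in best matches were split. edgeR 4.0.16 and DESeq2 1.42.0 gave scaling factors only. The whole-library total used tag numbers as ranks and gave missing tags the count of the next listed one. Code was tested on simulated data. Tags given by sequence or described by form are the 5 most read of each main arm, with further forms chosen after their values were seen. Names given as nearest are the 3 closest in log2 ratio. Members, lists and rules were chosen with earlier results of these data known.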

Additional observations from a re-analysis of the deposited data

How the results depend on the processing

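With 1 library per age no replicate could be left out. No paired analysis was possible because each age has 1 library. Depth limits the 180-day forms, several of which rest on under 50 reads. The ratio of the family share, 0.574, became 0.305 with TMM, 0.309 with median-of-ratios scaling, 0.455 without the 10 most read names and 0.0687 per read of the whole library. For miR-152, 0.582 became 0.309, 0.313, 0.462 and 0.0696 in the same order, and 0.457 without gapped tags, 0.460 without the most read one and 0.455 with tags given to their best mammalian match. The same choices of tags gave 0.524, 0.523 and 0.522 for the family share, and tags with 0 mismatches gave 0.632. For miR-148b-3p, 0.862 became 0.458 with TMM, 0.463 with median-of-ratios and 0.103 per read of the whole library. miR-148a lost its call, at 0.509 with 0 mismatches, 0.5003 without gapped tags and 0.5001 with both arms summed. miR-148b-5p turned to 0.229 per read of the whole library. With 0 mismatches miR-148b-5p passed the 2-fold rule upward, at 2.11 (1.43 to 3.04). With best mammalian matches it had a ratio of 1.71 (0.989 to 2.82). miR-148a*, at 0.725, fell past the 2-fold rule at 0.385 with TMM, 0.390 with median-of-ratios and 0.0867 per read of the whole library. The odds of miR-152 over miR-148a turned to 0.914 with best matches, 0.913 without gapped tags and 0.922 without the most read one, and moved to 1.53 with 0 mismatches, which leaves out most miR-152 tags with an added base and keeps the gapped tag. There the ratio of miR-152 was 0.779. With 0 mismatches and also without that tag, an alternative added after seeing the data, the odds were 0.997 and the ratios 0.507 for miR-152 and 0.509 for miR-148a.

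The share of the reference form moved with the tags counted. With 0 mismatches only, it was 77.5% at 180 days and 80.0% at 30 days for miR-148a, 92.2% and 90.5% for miR-152, and 65.3% and 62.4% for miR-148b-3p. Without tags of under 3 reads it was 71.8% and 73.3% for miR-148a and 62.0% and 58.7% for miR-148b-3p. Among tags with the leading start it was 72.1% and 75.0% for miR-148a, and at 30 days 43.9% for miR-152 and 58.9% for miR-148b-3p. The miR-152 share of starts at base 3 at 30 days was 2.03% with 0 mismatches.

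The 138 of 469 names called higher, or 29.4%, became 72 with TMM, 74 with median-of-ratios and 27 per read of the whole library. They became 77 of 327 with 100 or more reads, or 23.5%, and 251 of 1386 with no minimum, or 18.1%. The 57 called lower, or 12.2%, became 161, 161 and 396 under those scalings and 92 without the 10 most read names. Without tags of under 3 reads they became 88 of 431, or 20.4%.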

Other observations

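Single substitutions before the last base of the main arms were spread over many bases. At 30 days, 62 of the 63 possible tags with 1 substitution before the last base of miR-148a were listed, with 1044 reads in all beside 20986 exact reads, and the change with most reads was A15C with 106. The same change led in miR-152, with 55 reads beside 10777 exact reads at 30 days. In miR-148b-3p the leading change before the last base at 30 days was C10T with 87 reads, the tag that the lists name miR-148, followed by C17T with 41 reads. At 180 days the changes with most reads had 5 reads in miR-148a and 2 in miR-152.

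The 180-day list also held a second tag with the sequence of the gapped miR-152 tag and a further base, with 8 reads. At 30 days the highest count of any gapped tag of the family was 64 reads, and gapped tags named miR-152 held 145 reads in all. Outside the family, gapped matches held 3.93% of reads at 180 days and 3.77% at 30 days, while under the name miR-152 they held 22.2% at 180 days (20.2 to 24.2%) and 0.570% at 30 days (0.481 to 0.670%).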
